A study of Caenorhabditis elegans with 2 samples.

Results

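The one-strand promoter peaks of IRX-1 are the binding regions whose summit, the position of highest signal, lay in the promoter window of genes on a single DNA strand. The regions come from the authors' optimal list, which kept peaks by an irreproducible discovery rate (IDR) threshold, a limit on how poorly peak ranks repeat between replicates. Each protein-coding gene was given a window that opened 1000 bp upstream of its annotated start and closed 200 bp downstream of it, and summits within 200 bp of a tRNA, snoRNA or snRNA gene were dropped. The rule kept 865 of 2445 optimal peaks, or 35.4% (95% Wilson interval 33.5 to 37.3%). They made up 61.2% of the 1414 optimal peaks in promoter windows. The rest of those were 482 divergent peaks, whose summits lay in windows of genes on both strands, and 67 peaks near small RNA genes. Of the 67, 55 would otherwise have been one-strand peaks.

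The study used chromatin immunoprecipitation with sequencing (ChIP-seq), in which an antibody pulls down a protein with the DNA it is bound to. There was 1 group, of 2 biological replicates, and no second condition. The animals were hermaphrodite Caenorhabditis elegans of strain OP536, genotype unc-119(tm4063) III with the transgene wgIs536, which adds a GFP and FLAG tag to the C-terminal end of IRX-1. Whole L1 larvae were collected 6 hours after synchronization, which was by starvation of L1 larvae after bleaching, and GFP was the antibody's target. Both replicates carried the same mutation and transgene. Because whole animals were used, the cells in which a peak was bound cannot be told apart, and tagged IRX-1 may differ in level from the native protein, which was not tested. The depth of the libraries is unknown, and peak scores are the authors' own.

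IRX-1 belongs to the Iroquois family, homeodomain transcription factors of the TALE class that pattern tissues and neurons in many animals. In C. elegans it acts in DD neurons, GABA motor neurons that move their synapses during larval life. Worm promoters are compact, many genes are trans-spliced so that the annotated start can lie downstream of where transcription begins, and gene-dense regions often carry promoters that fire in both directions. A promoter serving genes on 1 strand lets a peak be placed relative to a direction of transcription.

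The sequences below show what the peaks held at their summits. Each is the 101 bases centred on the summit, from the RefSeq sequence of WBcel235 (ce11), written 5′ to 3′ along the strand of the gene. Capitals mark any of 7 short motifs on either strand. The hexamer ACGCAG overlaps a second one, GACGCA. The repeats searched were the GA repeat GAGAGA and the CG repeat, CGCGCG, which overlaps the related hexamer ACGCGC. The core given for Iroquois proteins is ACATGT. The remaining motif was the hexamer GCCTAG. The first 3 sequences are those of the highest-scoring named peaks. They belong to rpl-3, a large ribosomal subunit protein gene (chrIII:3867510-3867610, plus strand), nspc-17, of a nematode-specific peptide family (chrX:14525853-14525953, minus strand), and cdc-48.1, which encodes an AAA ATPase that unfolds ubiquitinated proteins (chrII:10563522-10563622, minus strand). All 3 windows overlap no exon of a protein-coding gene.
rpl-3: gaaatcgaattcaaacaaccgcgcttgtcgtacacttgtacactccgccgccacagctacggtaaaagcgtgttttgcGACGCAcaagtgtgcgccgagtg
nspc-17: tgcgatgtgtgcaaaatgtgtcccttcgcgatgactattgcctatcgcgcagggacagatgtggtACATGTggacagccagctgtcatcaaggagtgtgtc
cdc-48.1: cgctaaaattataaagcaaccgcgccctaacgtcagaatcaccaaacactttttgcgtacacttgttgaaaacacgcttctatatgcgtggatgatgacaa
The rpl-3 window holds GACGCA, and the nspc-17 window holds ACATGT, a core known mainly from the fly proteins. The cdc-48.1 window holds none of the 7.

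The next 3 show ACGCAG and GAGAGA run together into a single element, which appears on the gene strand or as its reverse complement. That run was in 24 of the 64 members that hold GAGAGA with ACGCAG or GACGCA, and in the others, such as B0546.4, they did not join this way. They lie before sec-61.G, a subunit of the endoplasmic reticulum protein channel, where the summit is also in the window of F32D8.13 (chrV:10897328-10897428, minus strand), before fust-1, an RNA-binding protein gene (chrII:7152138-7152238, plus strand), and before F17E5.2 (chrX:12393958-12394058, plus strand).
sec-61.G: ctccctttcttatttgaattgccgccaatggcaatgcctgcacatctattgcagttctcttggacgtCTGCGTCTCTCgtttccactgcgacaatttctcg
fust-1: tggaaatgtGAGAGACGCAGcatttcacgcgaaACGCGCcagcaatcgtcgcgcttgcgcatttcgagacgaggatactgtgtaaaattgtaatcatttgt
F17E5.2: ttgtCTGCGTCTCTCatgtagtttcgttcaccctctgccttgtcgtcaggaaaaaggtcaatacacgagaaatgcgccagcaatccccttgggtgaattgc
The following 3 hold GCCTAG, and were chosen after their scores were seen. They lie before cyn-10, a cyclophilin gene (chrII:6913453-6913553, minus strand), before C49A9.10 (chrIV:6206534-6206634, minus strand), and before eif-3.B, a subunit of translation initiation factor 3 (chrII:14795103-14795203, plus strand).
cyn-10: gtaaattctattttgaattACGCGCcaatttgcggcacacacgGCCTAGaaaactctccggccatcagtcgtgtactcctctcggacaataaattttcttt
C49A9.10: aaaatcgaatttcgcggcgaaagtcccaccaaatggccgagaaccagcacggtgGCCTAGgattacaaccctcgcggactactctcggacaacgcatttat
eif-3.B: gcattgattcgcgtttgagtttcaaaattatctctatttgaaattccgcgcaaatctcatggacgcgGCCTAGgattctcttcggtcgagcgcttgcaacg
The last is a peak next to the median score, before nhx-5, a sodium/proton exchanger gene (chrX:10576590-10576690, plus strand), and holds none of the motifs.
nhx-5: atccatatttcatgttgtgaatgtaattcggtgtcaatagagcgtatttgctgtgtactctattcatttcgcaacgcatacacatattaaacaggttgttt

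Scores of the 865 peaks ran from 81.5 to 1093, with a median of 135.6 and quartiles of 98.3 and 220.5. The median width was 410 bp. Of the 865 summits, 856 lay inside a region of both replicate lists, 3 were missing from that of replicate 1 and 6 from that of replicate 2. Over the 856, the replicate scores had a Spearman rho of 0.768, a description of peaks already chosen by pooled score, with both scores set against a control. The lowest member, at the nuclear hormone receptor gene nhr-97, scored 81.46, and the highest-scoring region of one-strand windows outside the list, at gta-1, scored 81.43. Members were thus parted from weaker regions by pooled score, and a single member need not repeat well in both replicates. At the ends of the window, the summit 997 bp upstream of nol-58 was kept (score 163.7), and the one 1005 bp upstream of fbxb-58 was not (429.6).

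The 20 highest-scoring members found among the top 2445 regions of both replicates scored 620.0 or more. The rpl-3 peak lay 294 bp upstream and scored 1093 in the pooled list. It scored 609.6 (rank 2) in replicate 1 and 492.3 (rank 4) in replicate 2. The nspc-17 peak, 722 bp upstream, scored 952.2, with 554.4 (rank 9) in replicate 1 and 400.3 (rank 14) in replicate 2. Both stood among the top regions of either list. The nspc genes are a multigene family, and whether reads are shared with other copies was not tested. The cdc-48.1 peak scored 919.6, with 491.9 (rank 15) and 431.4 (rank 9) in replicates 1 and 2, and lay 165 bp upstream.

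Next came rpl-35, another large subunit protein gene, at 898.5 in the pooled list, and W04C9.4 at 826.5. The C47E8.4 peak, at 796.8, lay 269 bp upstream in an intron of another gene. The cox-5A peak, before a cytochrome c oxidase subunit, scored 750.9, with 432.8 in the list of replicate 1 and 323.2 in that of replicate 2. These peaks held ranks 33 or better in both replicate lists. Lower among the 20 were pcn-1, the DNA polymerase clamp, at 706.9, puf-9, a Pumilio-family RNA-binding protein, at 684.1 in an exon of a non-coding gene, and pinn-1, a prolyl isomerase, at 677.3. At ints-4, an Integrator complex subunit, the summit lay 35 bp downstream of the start, in the 5′ UTR, with a score of 626.1. The eif-3.B peak scored 620.0, and stood at rank 35 in replicate 1 and 85 in replicate 2, the widest gap of ranks among the 20.

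**Figure D1:**
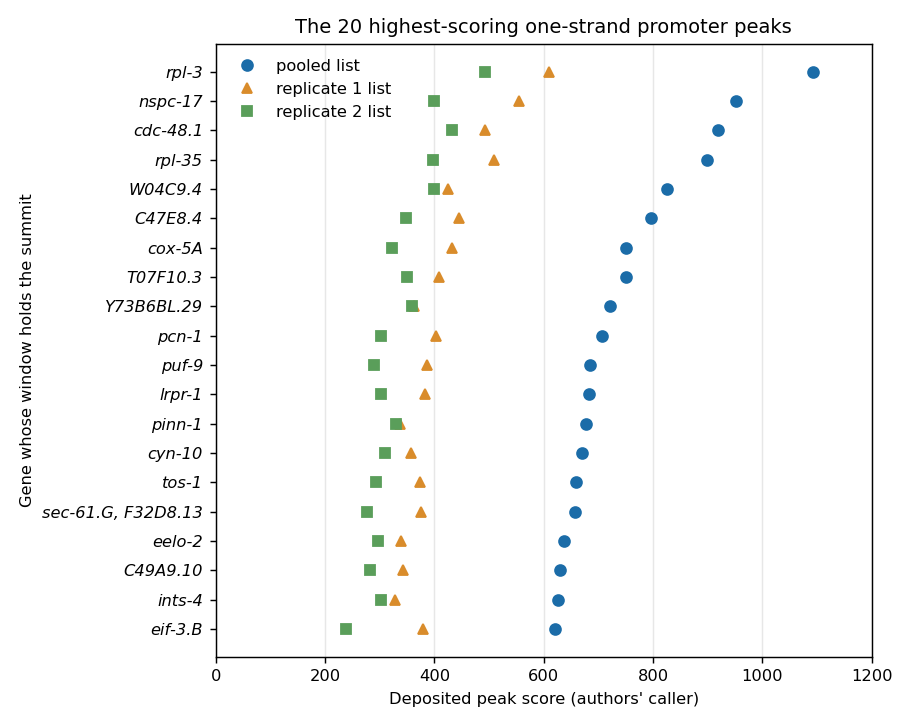
Deposited peak score (x axis) of the 20 highest-scoring one-strand promoter peaks (y axis, named by the gene whose window holds the summit) in the pooled list (circles), the replicate 1 list (triangles) and the replicate 2 list (squares). Every replicate 1 score lies above the replicate 2 score of the same peak, from rpl-3 at 609.6 against 492.3 down to eif-3.B at 379.8 against 239.0; scores from separate lists are on separate scales.

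irx-1 itself was among the genes. Its peak (WBGene00007984; chrI:9541062-9541471 on ce11), with the summit 301 bp upstream of the annotated start in intergenic DNA, scored 321.7 and ranked 280 in the pooled list. It scored 171.1 (rank 307) in replicate 1 and 146.3 (rank 278) in replicate 2. A weaker region (chrI:9541263-9541672), with its summit 502 bp upstream of irx-1, scored 52.2 and was not in the optimal list. It overlaps the irx-1 peak, so it may not be a separate site. The strain also carries irx-1 sequence in the transgene, and whether extra copies raise the signal there was not tested. unc-119, the locus of the strain's mutation, had no one-strand, divergent or weaker region in its window.

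Compared with divergent promoters, regions at one-strand promoters reached the optimal list less often, and their scores were lower. Of the 6446 pooled regions in one-strand windows, 865 were in the optimal list, which is 13.4%. The share was 38.1% of 1266 in divergent windows, an odds ratio of 0.252 (two-sided Fisher's exact test, Benjamini-Hochberg adjusted p = 1.075e-83 over 5 measures). Per length of window, there were 44.8 one-strand peaks per Mb against 232.2 divergent peaks per Mb. Neither comparison allows for position in the window. In one-strand windows the pass share was 22.2% from 200 to 1 bp upstream, 5.89% from 1000 to 801 bp upstream and 4.32% downstream of the start. What position adds to the difference between the classes was not tested. Scores above the median of all optimal peaks, 130.7, were held by 52.1% of one-strand peaks (interval 48.8 to 55.5%) and 61.6% of divergent peaks (57.2 to 65.9%), giving 0.679 as odds ratio (adjusted p = 0.00113 in Fisher's exact test). The median score was 135.6 for one-strand peaks and 152.5 for divergent peaks. Within the upper part of the list, cut at its median score, the score difference did not pass (odds ratio 0.870, adjusted p = 0.462, Fisher's exact test). Passing and scoring above the median are both cuts on the pooled score, so they are not separate results. Peaks are not independent replicates, so these p-values describe the pooled lists and not animals.

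One-strand peaks were also found in the top regions of both replicates less often, 74.0% (640 of 865) against 82.2% of divergent peaks (396 of 482), giving 0.618 as odds ratio (adjusted p = 0.000972 in Fisher's exact test). Top regions are cut by the score in each replicate list, so this measure is not separate from the score difference. With any region of a replicate list counted, the shares were 98.96% and 99.79% and the call did not hold (adjusted p = 0.107, Fisher's exact test), nor did it among peaks above the median score, where they were 99.6% and 99.3%. In both of these settings the shares were near their ceiling, so little difference could show. Summit GC above the overall median of 46.5% occurred in 46.01% of one-strand and 40.04% of divergent peaks, an odds ratio of 1.28 (adjusted p = 0.0392, Fisher's exact test). That difference was lost with the top regions of either replicate alone, at odds ratios of 0.952 without replicate 1 and 1.07 without replicate 2.

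Of the 5 measures, position on X had the odds ratio farthest from 1. X held 171 one-strand peaks, 19.8% of them (interval 17.3 to 22.6%), and 14 divergent peaks, 2.90% (1.74 to 4.82%), giving 8.24 as odds ratio (adjusted p = 1.12e-20 in Fisher's exact test). X holds 15.4% of the length of one-strand windows and 5.52% of that of divergent windows, so the available promoters differed in the same direction. Per Mb of one-strand window, X had 57.4 peaks, chromosome III 58.4, chromosome I 55.5, chromosomes II and IV 41.5 and 41.0, and chromosome V 28.7. X was thus among the denser chromosomes for one-strand peaks, beside I and III. For divergent peaks it was the least dense, at 122.1 per Mb of divergent window, against 162.4 to 348.3 on the other chromosomes. Its one-strand peaks had the lowest median score, 125.4, and those of III the highest, 152.3. Peaks on X included rpl-11.2 (447.4), hsp-3, which encodes an endoplasmic reticulum Hsp70 (375.4), and ins-39, an insulin-like peptide gene (436.4). Among the named peaks, puf-9 and nspc-17 were on X.

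Members gathered just upstream of the gene start. The median summit lay 248 bp upstream (quartiles 413 and 134 bp), against 351 bp (657 and 92) for the 5581 weaker regions of the same windows. Between 400 and 201 bp upstream lay 282 members, 32.6% of them, against 18.2% of weaker regions. Between 200 and 1 bp upstream lay 314 members, 36.3%, against 19.8% of weaker regions. In these bins 21.7% and 22.2% of pooled regions were in the optimal list, beside 13.4% over all one-strand windows. From the start to 200 bp downstream lay 41 members, 4.74%, against 16.3% of weaker regions, and 4.32% of regions there passed. Those 41 had a median score of 106.9, and 51.2% were in the top regions of both replicates. lrpr-1 had its summit 1 bp upstream of the start, while tag-30, 196 bp downstream, was the farthest inside a gene. Weaker regions differ from members by the score that made the list, so these values are given with no test.

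**Figure D2:**
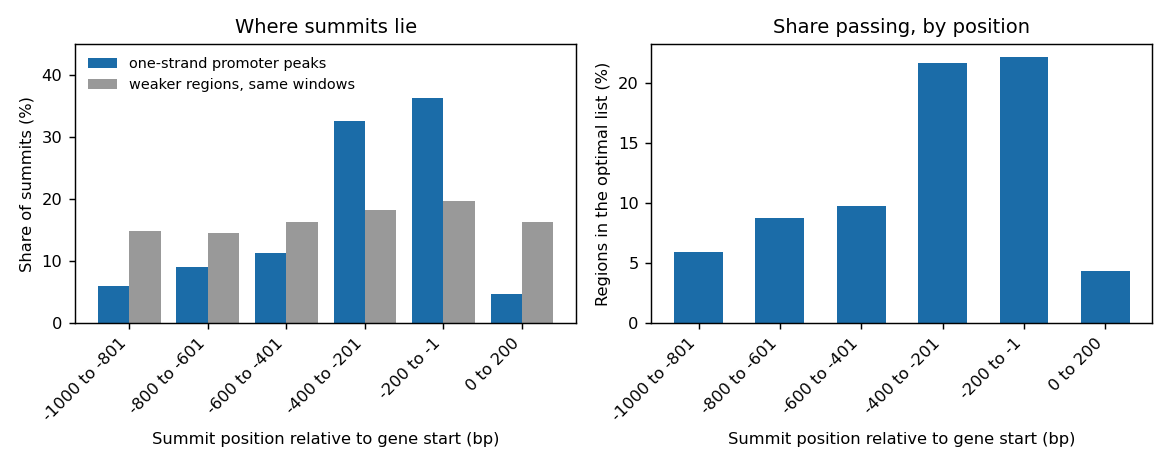
Left, share of summits (y axis, %) in each position bin relative to the gene start (x axis, bp, negative is upstream) for the 865 one-strand promoter peaks and the 5581 weaker regions; right, share of pooled regions in each bin that are in the optimal list. The bins from 400 to 1 bp upstream hold 32.6% and 36.3% of the peaks, with 21.7% and 22.2% of regions in the optimal list, against 4.32% downstream of the start.

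By annotation, 705 summits (81.5%) were intergenic, 52 (6.01%) lay in introns of protein-coding genes, 50 (5.78%) in exons of non-coding genes, 36 (4.16%) in 5′ UTRs, 17 (1.97%) in 3′ UTRs and 5 (0.578%) in coding exons. Among weaker regions of the same windows, 63.0% were intergenic and 13.5% in coding exons. The non-coding exon group included puf-9, syd-2, which encodes the synaptic scaffold liprin-alpha, lin-14 and daf-16. The upstream neighbour was a gene on the same strand for 476 peaks (55.03%), with its end a median of 433 bp from the summit, and a gene facing away for 317 peaks (36.6%), a median of 3210 bp off. The other 72 summits lay inside another gene. Median scores of these arrangements were 133.2, 145.3 and 119.7 in that order. cox-5A and rpl-35 were of the facing-away kind, with the next gene 13461 and 11049 bp distant. The annotated start of a non-coding gene on the other strand lay in reach of 92 summits (10.6%), whose median score was 134.1 against 136.3 for the others.

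The 865 peaks gave 872 protein-coding genes a peak, 4.37% of 19973. Of the summits, 830 lay in the window of 1 gene and 35 in windows of 2 genes of the same strand, as at sec-61.G and F32D8.13. There were 459 peaks at genes of the plus strand and 406 at genes of the minus strand. In 28 genes the window held 2 peaks, and in none 3. At nspc-17 the second peak scored 175.6, with its summit 921 bp upstream and inside the first peak (chrX:14525700-14526152). At ftt-2, a 14-3-3 protein gene, the peaks scored 600.4 and 177.2 at 643 and 850 bp upstream. At eel-1, which encodes a HECT ubiquitin ligase, they scored 220.1 and 216.7 at 364 and 661 bp. The second peak of ftt-2 was thus much the weaker, while those of eel-1 were alike. Of the members, 54 overlap another optimal peak, so 2 peaks in a window need not be separate sites.

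Summits were richer in G and C than their surroundings. The mean GC of the 101 bases was 45.6%, against 34.0% in windows centred 300 bp upstream and 36.1% in windows 300 bp downstream. It was 44.8% at divergent summits and 35.3% at weaker regions. Of 9 motifs compared between summit and flanks, 5 (55.6%) were higher at the summits than in both flanks, 3 were lower and 1 did not pass (two-sided exact McNemar tests, the larger p of the 2 flanks, adjusted over 9). The GC gap moves with the motif results, and its part in them was not tested. ACGCAG is also among the leading 6-mers of these data (adjusted p = 3.695e-23 over 2080, exact McNemar test). Its place among the 9 is thus not taken as independent of them, which the count of 5 does not allow for.

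GAGAGA, a GA repeat, was in 199 windows, 23.0%, against 6.36% in either flank (odds ratio 4.29, adjusted p = 2.53e-21, exact McNemar test). The share was 8.94% in weaker regions and 8.42% in windows of the same length at all promoters. ACGCAG was in 144 windows, 16.6%, against 1.16% upstream and 2.08% downstream (odds ratio 10.8, adjusted p = 4.80e-25, exact McNemar test), and in 3.10% of promoters. CGCGCG was in 6.59% of summit windows, the GC box CCGCCC in 5.55%, and the E-box CACGTG, bound by basic helix-loop-helix factors, in 5.202%, with odds ratios of 6.88, 4.61 and 2.40 over the flanks. The last pair were less stable: CCGCCC had an odds ratio of 2.82 without replicate 2 and CACGTG one of 3.89 without replicate 1, and neither passed within 25 bp of the summit (adjusted p = 0.0672 and 0.0902, exact McNemar tests). CACGTG also did not pass against flanks 500 bp away (adjusted p = 0.0720, exact McNemar test). The 3 lower motifs included marks of gene structure. TATAAA, the core of the TATA box, was in 4.62% of summit windows, against 13.5% upstream and 13.1% downstream (odds ratio 0.317). Its odds ratio was 0.494 without replicate 2, and 0.713 within 100 bp of the summit, where it did not pass (adjusted p = 0.0784, exact McNemar test). TTTCAG, the splice acceptor consensus, was in 7.28%, against 18.03% upstream and 28.0% downstream (odds ratio 0.254). The median summit lay 248 bp upstream, so many downstream flanks, centred 300 bp toward the gene, lie inside it. What that adds to the difference was not tested.

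Of the motifs searched for Iroquois proteins, the core did not pass and the shorter TTACA was lower at summits. ACATGT, a palindrome, was in 25 windows, 2.89%, against 2.54% upstream and 1.97% downstream (odds ratio 1.29, adjusted p = 0.766, exact McNemar test), and in 2.71% of weaker regions and 2.96% of promoters. Its odds ratio fell below 1 under some settings, to 0.804 at the lowest. TTACA, which is not a part of ACATGT and is poor in G and C, was in 11.4% of summit windows. It was in 20.9% and 22.4% of the flanks (odds ratio 0.460, adjusted p = 1.95e-07, exact McNemar test). ACATGT peaks had a median score of 115.9, and nspc-17 was the highest-scoring peak printed with it. A match is only a run of letters, and its absence says nothing about binding.

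Between peak classes, a comparison chosen after the values were seen, GAGAGA was in 23.0% of one-strand windows and 15.98% of divergent windows, an odds ratio of 1.57 (two-sided Fisher's exact test, adjusted p = 0.0218 over 9 motifs). None of the other 8 motifs passed, with adjusted p from 0.105 to 0.546. ACGCAG was in 16.6% of one-strand and 14.1% of divergent windows (odds ratio 1.22, adjusted p = 0.311, Fisher's exact test). Members with GAGAGA had a median score of 125.0, against 141.2 for those without it.

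**Figure D3:**
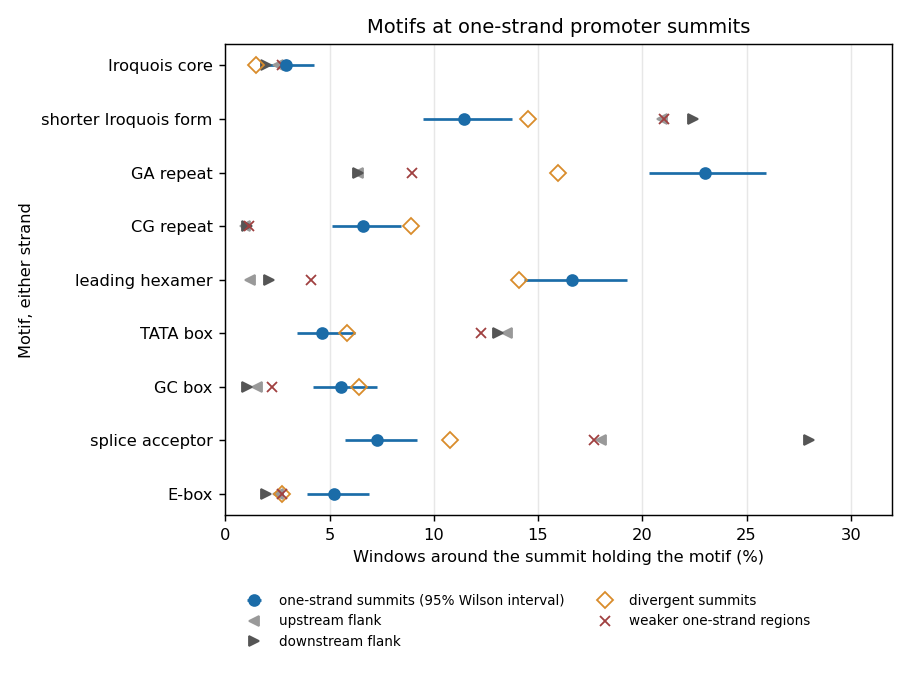
Share of 101 bp windows (x axis, %) that hold each of 9 motifs on either strand (y axis) at one-strand summits (filled circles, with 95% Wilson intervals), divergent summits (diamonds), the upstream and downstream flanks of one-strand summits (triangles) and weaker regions in one-strand windows (crosses). The GA repeat stands at 23.0% at one-strand summits, 15.98% at divergent summits and 6.36% in each flank, while the Iroquois core lies between 1.45% and 2.89% in every set.

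Over all 2080 6-mers counted on both strands, 301 (14.5%) were higher at the summits than in both flanks and 193 (9.28%) were lower (exact McNemar tests, adjusted p under 0.05). The calls followed base composition: none of the 228 6-mers with at most 1 G or C was higher, and none of the 720 with 4 or more was lower. Leading was GACGCA, in 157 windows, 18.2%, against 1.503% upstream and 1.73% downstream (odds ratio 13.2, adjusted p = 1.03e-28, exact McNemar test). It overlaps ACGCAG by 5 bases. ACGCGC followed in 138 windows, 15.95% (odds ratio 10.7). At least 1 of ACGCAG and GACGCA was in 194 members, 22.4%, against 22.2% of divergent peaks and 5.70% of weaker regions. ACGCGC or CGCGCG was in 163 members, 18.8%, against 23.7% of divergent peaks. Together with GAGAGA, these covered 437 members, and 428 (49.5%), cdc-48.1 and nhx-5 among them, held none. The median score was 140.8 with any and 132.6 with none. Both ACGCAG or GACGCA and GAGAGA were in 64 members, such as sec-61.G and fust-1.

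Scores differed with GCCTAG, which was picked out after the scores were seen and gets no test. It was in 57 members, 6.59%, against 9.54% of divergent peaks and 1.58% of weaker regions. Its members had a median score of 213.5, and 51 of the 57 were in the top regions of both replicates. In 44 of them it was preceded by G, so that GGCCTA overlapped it in a single site, with a median of 263.8. In 20 of the 57 (35.1%), cyn-10 and C49A9.10 among them, GGAGTA or GGACTA was also present, against 59 (7.30%) of the members without GCCTAG. Those 20 had a median score of 335.8 and were all in the top regions of both replicates. GGACTA and GGAGTA also stood high by score, with medians of 213.4 and 204.6, so this median is no separate result. The 59 without GCCTAG had a median of 192.8, and 51 of them were in the top regions of both replicates. Among 1009 6-mers found in at least 30 members, GCGGCC had the highest median score, 262.4 over 35 members, and GATTGA the lowest, 97.5 over 31.

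Read along the gene, the peaks were asymmetric. Of 2016 pairs of a 6-mer and its reverse complement, 57 (2.83%) had a strand preference at the summits (two-sided exact binomial tests, adjusted over the pairs), and the preferred 6-mer had at least 4 pyrimidines on the gene strand in all 57, and 5 or 6 in 53 (93.0%). Of all 2016 pairs, 448 (22.2%) have a member with 5 or 6 pyrimidines. TTTTTC was on the gene strand alone in 170 windows, against 62 for GAAAAA (adjusted p = 1.66e-09, exact binomial test), and this pair leaned the same way in the flanks, at 192 and 148 upstream and 201 and 130 downstream. CTTCTC was in 79, against 22 for GAGAAG (adjusted p = 5.10e-06, exact binomial test). The counts of CTTCTC and GAGAAG were 29 and 27 in the upstream flank and 34 and 34 in the downstream flank. The upstream flank gave 14 called pairs and the downstream flank 18, of which 7 and 5 were also called at the summit. The repeat motif was not called, with TCTCTC in 113 windows and GAGAGA in 76 (adjusted p = 0.128, exact binomial test), nor was GACGCA, with TGCGTC in 89 and GACGCA in 60 (adjusted p = 0.215), nor ACGCAG, with CTGCGT in 89 and ACGCAG in 51 (adjusted p = 0.0525). The count of called pairs depends on the window, at 4 within 25 bp and 274 within 100 bp.

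In base composition, pyrimidines were 54.1% of the gene strand at the summit, and above 50% in 578 of the 865 windows (66.8%). They were 52.5% in the upstream flank, 51.2% in the downstream flank and 53.2% at the summits of weaker regions. The summit value of members was thus only slightly higher than these. The share was highest beyond the summit: in 21 bp windows it reached 59.0% at 90 bp toward the gene, against 52.4% at 90 bp away from it. It was 59.8% for genes of the plus strand and 58.2% for those of the minus strand. It was 58.3% on X and 59.2% on the autosomes. For members above the median score it was 60.5%, and for the rest 57.4%. Summits 1 to 300 bp upstream had 61.3% there, and those farther upstream had 56.5%. The 41 summits at or downstream of the start had 53.5%. The weaker regions had 52.4% there and 53.6% on the other side. These shares carry no test, and windows centred 90 bp toward the gene may reach past the start in peaks near it. The 90 bp distance is where the members' own share was highest, so comparisons there favour the members.

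**Figure D4:**
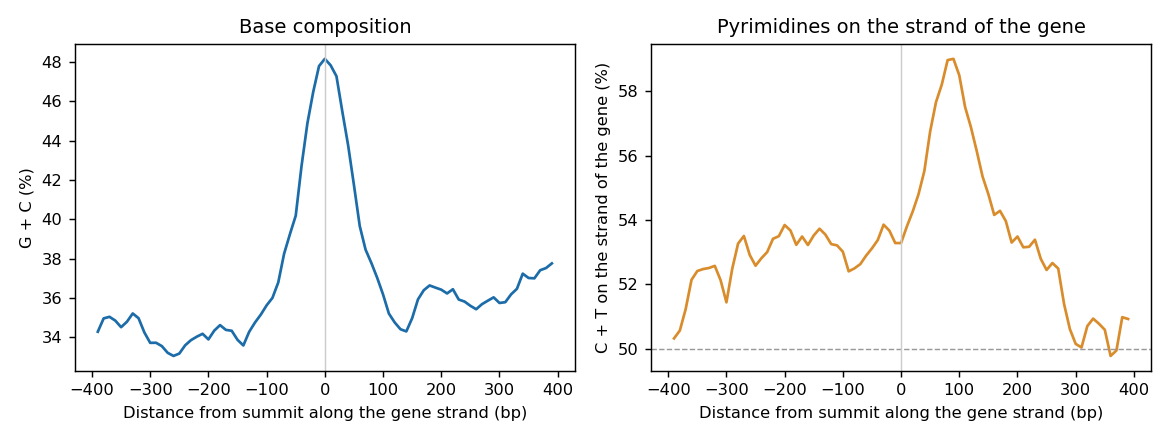
Mean share of G and C (left, %) and of C and T on the strand of the gene (right, %) in 21 bp windows at each distance from the summit (x axis, bp, positive is toward the gene), over the 865 one-strand promoter peaks. GC is highest at the summit, 48.2%, while pyrimidines reach 59.0% at 90 bp toward the gene.

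By function, the share of genes with a one-strand peak ran widely among 23 lists, beside 4.37% of all protein-coding genes. Ribosomal protein, respiratory chain and membrane trafficking genes lay above that share, and chemoreceptor, neuropeptide and detoxification genes below it. Lists were chosen with earlier results of these data known, and shares are given with no test. Of 82 ribosomal protein genes, 23 (28.0%) had a one-strand peak, with a median best score of 174.1, against 140.4 over all genes with a peak. Another 36 had a divergent peak, 5 a weaker region only and 18 none. Over all 19973 protein-coding genes, 979 (4.90%) had a divergent peak, 4550 a weaker region only and 13575 none. After rpl-3 and rpl-35 came rpl-11.2 (447.4, 387 bp upstream) and rpl-24.2 (388.8, 168 bp upstream, in an intron). Of 43 translation factors, 6 had a one-strand peak, among them eif-3.B (620.0), eif-3.C (534.1), a subunit of the same initiation factor, and eef-1A.2, an elongation factor (298.7). Of 32 aminoacyl-tRNA synthetases, 4 did, led by kars-1 (169.5).

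Of 51 genes of the respiratory chain and ATP synthase, 10 (19.6%) had a one-strand peak, led by cox-5A (750.9), nduf-11 of complex I (280.9) and ucr-2.2 of complex III (248.4). Of 86 membrane trafficking genes, 13 (15.1%) did, led by sec-61.G (657.2), vps-4, the ATPase of the ESCRT pathway (405.4), and vps-22 (356.6). Heat shock and DnaJ genes had 5 of 52, with a median of 375.4. These were hsp-1, the constitutive Hsp70 (548.8), dnj-9 (426.4), hsp-3 (375.4), dnj-10 (146.2) and dnj-7 (87.2), and dnj-7 was not in the top regions of both replicates. Chromatin modifiers had 11 of 81 (13.6%), with cbp-1, the CBP/p300 acetyltransferase (500.2), set-4, a histone H4 methyltransferase (393.0), and set-2, a histone H3 methyltransferase (304.4). Proteasome subunits had 1 of 33, rpn-11 (210.9), against 10 with a divergent peak. The CCT chaperonin had 0 of 8, which allows a share of up to 37.5% by the limit of 3 counts (Wilson upper bound 32.4%), and 4 with a divergent peak. Splicing factors had 4 of 48 and vacuolar ATPase subunits 4 of 21.

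Among developmental regulators, wrm-1 and irx-1 scored above the members' upper quartile of 220.5, and the other genes named here below it. Nuclear hormone receptors had 16 of 269 (5.95%), near the share of all genes, led by nhr-87 (165.2) and nhr-49, a regulator of fat metabolism (158.2). Homeobox factors had 3 of 95 (3.16%), which were irx-1 (321.7) and the Hox genes ceh-13 (136.5) and mab-5 (97.5). Heterochronic genes, which time larval fates, had 3 of 10 (interval 10.8 to 60.3%). These were lin-66 (149.7), lin-14 (132.5) and lin-28 (91.7), and lin-28 was not in the top regions of both replicates, with rank 2835 in replicate 1 and 1317 in replicate 2. lin-14 had ranks of 946 in replicate 1 and 2043 in replicate 2. Wnt, Notch and TGF-beta genes had 5 of 47 (10.6%), led by wrm-1, a beta-catenin (387.8), with pop-1, a TCF factor, at 106.4.

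In the nervous system lists, GABA motor neuron and DD remodelling genes had 2 of 15 (13.3%), which were irx-1 and lin-14, so the list shares them with the homeobox and heterochronic lists. None of the 15 had a divergent peak, beside 4.90% of all protein-coding genes, and 15 genes are few for such a share. Of the 15, 6 had a weaker region only and 7 had none. One of the 6 was gta-1, the GABA transaminase gene, at 81.43 just under the lowest member. Pan-neuronal and synaptic release genes had 4 of 28 (14.3%): syd-2 (183.0), tom-1, which encodes the release inhibitor tomosyn (142.8), maco-1 (131.9) and rgef-1 (99.7). Neuropeptide and insulin genes had 1 of 141 (0.709%), ins-39 (436.4). Cuticle collagens had 4 of 176 (2.27%), led by col-63 (148.7), and detoxification enzymes 2 of 185 (1.08%). Chemoreceptors had 1 of 1310 (0.0763%), srh-76 (89.9). The insulin and TOR list had 1 of 20, daf-16, a FOXO factor (104.03), and histones had 3 of 81, led by his-37 (468.7) (whether its near-identical copies share reads was not tested). Genes in none of the 23 lists had a one-strand peak in 748 of 17065 cases, 4.38%, with a median best score of 138.7.

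**Figure D5:**
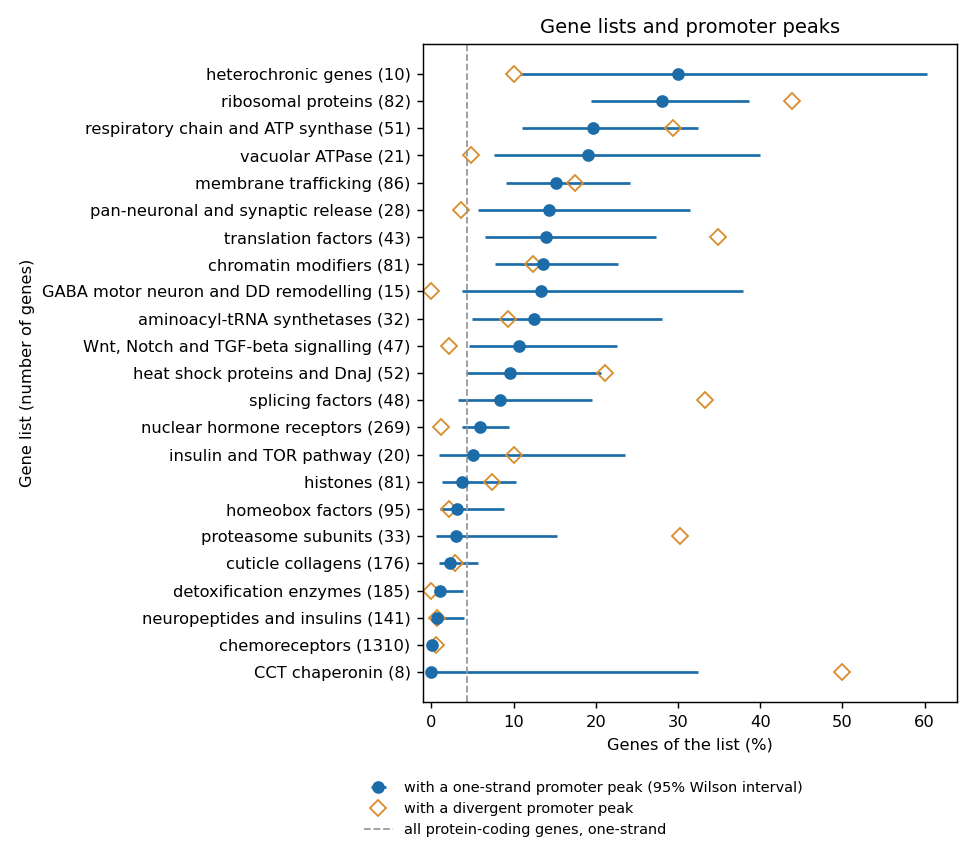
Share of genes (x axis, %) in each of 23 lists (y axis, with the number of genes) that have a one-strand promoter peak (circles, with 95% Wilson intervals) or a divergent promoter peak (diamonds), with the share of all protein-coding genes that have a one-strand peak as a dashed line at 4.37%. Ribosomal proteins stand at 28.0% one-strand and 43.9% divergent, while proteasome subunits stand at 3.03% and 30.3%. The divergent share of all protein-coding genes, 4.90%, is not drawn.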

How the data were processed

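The authors deposited peak lists that were derived from alignments and a control file, per the file headers of the notes. There is a permissive list per replicate, a pooled permissive list and an optimal list that passed an IDR threshold. The identity of the aligner and peak caller, or the IDR cutoff, is not given in the sources used here. The authors' peak score, of no stated formula, ranked and described the deposited regions. The deposited −log10 q value was used only for an alternative ranking. Lists on the ce10 build were not used here. Depth is unknown.

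Summits on ce11 were set against Ensembl release 115 and the RefSeq sequence of WBcel235, with 1-based coordinates, in Python 3.11.15 with numpy 2.4.6, pandas 2.3.3, scipy 1.17.1 and matplotlib 3.10.9. Weaker regions are the pooled permissive regions in one-strand windows that are not optimal peaks. They can overlap a member, as at irx-1. Replicate top regions are the 2445 highest-scoring of each list, with an overlap of 1 bp. Classes were compared by Fisher's exact test, two-sided, motifs with exact McNemar tests against windows 300 bp away, and strands with exact binomial tests, each with Benjamini-Hochberg adjustment. The code was tested on simulated data. Wilson intervals cover counting error only. The named genes are the 20 highest-scoring members found in the top regions of both replicates, up to 4 leading members of each gene list, irx-1 and unc-119. The members and lists were chosen with earlier results of these data known, and motif comparisons between classes, and those by score, after their values were seen. Alternatives were other windows and flanks, a top subset of the list, other rankings and each replicate left out.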

Additional observations from a re-analysis of the deposited data

How the results depend on the processing

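The pass share (odds ratio 0.244 to 0.270) and the share on X (5.73 to 9.42) kept direction and call in 9 of 9 alternatives each. The member share of the optimal list was 32.8% with a window of 500 bp upstream to 100 bp downstream, 37.6% with no summit dropped near small RNA genes, and 31.6% without summits that have a non-coding start on the other strand. In the part of the optimal list above its median score, the odds ratio against divergent peaks was 1.52 for being in both replicates' top regions (adjusted p = 0.651, Fisher's exact test, reversed), 0.870 for a high score and 1.21 for high GC (not past the threshold), with 184 6-mers higher, 111 lower, 5 strand pairs and 464 genes. With any replicate region counted, the odds ratio for both replicates was 0.198 (adjusted p = 0.107, Fisher's exact test). For this measure, the shares were near their ceiling here and in the part above the median, so little difference could show. For GC the odds ratio was 1.26 with overlapping peaks reduced and 1.21 without non-coding starts, neither passing. Leaving out a replicate gave GC odds ratios of 0.952 to 1.07 and 67 to 81 strand pairs. Within 25 bp, 3 motifs were higher, 190 6-mers higher, 115 lower and 4 strand pairs called; within 100 bp, 274 strand pairs were called. ACATGT reversed to odds ratios of 0.804 in that upper part, 0.952 without replicate 1 (1.22 without replicate 2) and 0.976 within 100 bp. In these cases the cause was not tested, except that smaller windows and subsets hold fewer matches. Replicate overlap could not be recomputed with a replicate left out. No paired analysis was possible because there is a single group. Depth is unknown, so what it limits cannot be stated.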
